A study of Mus musculus with 10 samples.

Results

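The 10 genes described here encode phosphodiesterases (*Pde9a*, *Pde2a*, *Pde3b*, *Pde4b*, *Pde4d* and *Pde7a*), an adenylyl cyclase (*Adcy7*) and effectors of cyclic nucleotides (*Rapgef3*, *Prkacb* and *Prkar1a*), out of 25579 genes listed in each expression file. They were selected on the same TPM values that are given below, with *Pde9a* and *Rapgef3* standing out in earlier results. Their levels and differences are therefore a description. No p-value is given for any single one of them, and the intervals, calls and counts beside them are not independent evidence. All 10 were among the 13436 genes with a TPM (a level per transcript length that is scaled to the same sum in every library) of at least 1 in at least 1 library. The study asked how a missense mutation in the DNA-binding paired domain of the B cell transcription factor Pax5, R31Q, alters gene expression and Pax5 binding in mouse pro-B cells. RNA-seq libraries were made from pro-B cells sorted from bone marrow of C57BL/6 mice, 2 for each of 4 genotypes: Pax5+/+, Pax5+/- with 1 null allele, Pax5R31Q/- with the R31Q allele over a null allele, and Pax5fl/fl Vav-Cre, in which Cre driven by the hematopoietic *Vav* promoter deletes both alleles and whose cells the labels call progenitors rather than pro-B cells. Pax5 ChIP-seq peaks came from 1 library of Rag2-/- pro-B cells with wild-type Pax5 and 1 library of Pax5R31Q/- pro-B cells that had been kept for a short time in culture with stromal OP9 cells and IL-7. The antibody was raised against the paired domain of Pax5, which holds the mutated residue, and its binding to the R31Q protein was not tested here. The cells of the RNA-seq and ChIP-seq libraries therefore differed in culture. By their listed genotypes, the ChIP-seq libraries also differed in *Rag2*, an effect that cannot be told apart from that of *Pax5*. No ChIP-seq library came from Pax5+/- cells. In the peaks, the effect of R31Q therefore cannot be told apart from that of the null allele either.

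Adenylyl and guanylyl cyclases make the second messengers cAMP and cGMP, and phosphodiesterases hydrolyze them, each family with its own preference. cAMP acts through protein kinase A, whose catalytic subunits are held inactive by regulatory subunits until cAMP binds, and through the Epac proteins, which activate the small GTPase Rap1. In lymphocytes, a rise of cAMP generally dampens antigen receptor signaling, and phosphodiesterases of the PDE4 and PDE7 families are known to limit it.

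The depth on genes, recovered from the steps between the TPM values, ranged from 21627592 reads in the Pax5fl/fl Vav-Cre replicate 1 library to 34490114 reads. All 10 early B lineage markers had at least 1 TPM on average in each genotype, with sums of 15006 to 18925 TPM in the pro-B cell libraries and of 8335 to 9046 TPM in those of Pax5fl/fl Vav-Cre. *Pax5* itself had 431 ± 18.4 TPM in Pax5+/+, 279 ± 10.3 in Pax5+/-, 299.6 ± 9.29 in Pax5R31Q/- and 1325 ± 118 in Pax5fl/fl Vav-Cre cells, and since a value per gene covers all exons together, the last one checks nothing about the deletion (mean ± SD, n = 2 each). The summed 8 myeloid markers stood at 2074 and 318 TPM in the Pax5fl/fl Vav-Cre libraries, at 997 and 948 TPM in Pax5R31Q/-, at 665 and 1534 TPM in Pax5+/- and at 616 and 399 TPM in Pax5+/+ libraries. Their part in the differences between Pax5R31Q/- and Pax5+/+ cells was not tested. The labels do not say whether 2 libraries of a genotype came from separate mice, so the errors measure the spread between these libraries. In these bulk samples, fewer cells of a type and less RNA per cell cannot be told apart.

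*Pde9a* encodes a phosphodiesterase with high affinity and specificity for cGMP, and its transcripts were nearly absent from the Pax5R31Q/- and Pax5fl/fl Vav-Cre cells. It lies on the plus strand of chromosome 17 from 31386105 to 31476309 (GRCm38, RefSeq annotation). Its level was 26.0 and 43.5 TPM in the Pax5+/+ libraries, 15.2 and 9.22 TPM in the Pax5+/- libraries, 0.0696 and 0 TPM in the Pax5R31Q/- libraries and 0.0483 and 0 TPM in the Pax5fl/fl Vav-Cre libraries. In reads, these values correspond to 746 and 1114, 426 and 258, 2 and 0, and 1 and 0. Both Pax5+/+ libraries lay above both Pax5+/- libraries, these lay above all 4 mutant libraries, and the mutants overlapped each other. Relative to all reads on genes, the pooled Pax5R31Q/- libraries held 981 times fewer *Pde9a* reads than the Pax5+/+ libraries, with an exact 95% interval of 271 to 8109 that covers counting error only. For the pooled Pax5fl/fl Vav-Cre libraries the ratio was 1609, with an interval of 288 to 63573. Some of the 6 markers of B cells past the pro-B stage were lower in the same genotypes. *Ms4a1*, which encodes CD20, had 19.9 ± 8.33 TPM in Pax5+/+, 22.4 ± 3.56 in Pax5+/-, 3.01 ± 2.58 in Pax5R31Q/- and 0.212 ± 0.0313 in Pax5fl/fl Vav-Cre cells, and the means of *Cd22*, *Fcer2a*, *Cr2* and *Cd2* were likewise lower in both mutants than in Pax5+/+ cells, while that of *Il2ra* was higher in both mutants. The study describes *Cd2* as directly activated by Pax5 and missing from Pax5R31Q/- pre-B cells. In Pax5+/+ cells, *Cr2* had only 0.239 TPM and *Fcer2a* 1.40 TPM on average. The 6 markers summed to 86.8 to 96.4 TPM in Pax5+/+, 79.2 to 91.5 in Pax5+/-, 53.2 to 79.7 in Pax5R31Q/- and 46.9 to 72.1 in Pax5fl/fl Vav-Cre libraries. Their part in the level of *Pde9a* was not tested.

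On the log2(TPM + 1) scale, which understates the change of weakly expressed genes, *Pde9a* differed from Pax5+/+ by -5.07 ± 0.296 (SE; 95% interval -5.76 to -4.38) in Pax5R31Q/- and by -5.08 ± 0.296 in Pax5fl/fl Vav-Cre cells. Pax5+/- cells had a mean of 12.2 ± 4.23 TPM against 34.7 ± 12.4 TPM in Pax5+/+ cells (n = 2 each), a difference of -1.43 ± 0.296 with an interval of -2.12 to -0.74. Against Pax5+/-, the genotype that also carries 1 null allele, Pax5R31Q/- cells differed by -3.64 ± 0.296. That call was lost without Pax5+/- replicate 1 (-3.31) and without Pax5R31Q/- replicate 1 or 2 (-3.69 and -3.59). These SEs come from the limma fit over all 4 genotypes and rest on 4 residual degrees of freedom plus the spread shared across genes.

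Among the listed genes with a Rag2-/- peak within 1 kb of an annotated start, *Pde9a* alone had no such peak met by a Pax5R31Q/- peak. With only peaks of at least 400 bp, no listed gene had lost its start site peaks. The Rag2-/- list held 4 peaks in the gene, of which the first 3 overlapped no Pax5R31Q/- peak, beside 62.5% of all Rag2-/- peaks. Unmatched peaks also outnumbered matched ones in *Pde4d* (11 against 6), *Pde3b* and *Pde4b* (2 against 1 each). The first, at chr17:31386078-31386306, covered both annotated starts of the gene at its 5′ end and measured 229 bp. The second, at chr17:31387008-31387372 (365 bp), lay in the first intron with its midpoint 956 bp downstream of the curated start. The third, at chr17:31434071-31434360 (290 bp), lay in an intron 1098 bp past the start of a shorter transcript. It also lies within *Gm9902*, a gene of the opposite strand. The last peak, at chr17:31475841-31476202, fell in the final exon and was met by a Pax5R31Q/- peak of 590 bp.

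The sequences of the 3 peaks that Pax5R31Q/- cells lacked are shown because they are the positions in *Pde9a* at which the 2 peak lists differ. They were read from the RefSeq GRCm38 assembly on the plus strand, which is that of the gene. The first run ends at the base before the curated start, and its capitals mark the bases inside the peak. The second run holds the central 300 bases of its peak, and the third holds the whole peak.
*Pde9a* upstream of the curated start, chr17:31386034-31386233: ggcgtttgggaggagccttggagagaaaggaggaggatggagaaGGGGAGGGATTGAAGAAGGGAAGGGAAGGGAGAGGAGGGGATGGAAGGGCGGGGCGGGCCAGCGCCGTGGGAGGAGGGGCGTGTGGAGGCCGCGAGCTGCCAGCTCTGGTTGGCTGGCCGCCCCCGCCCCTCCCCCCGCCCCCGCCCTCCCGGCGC
*Pde9a* first intron, chr17:31387041-31387340: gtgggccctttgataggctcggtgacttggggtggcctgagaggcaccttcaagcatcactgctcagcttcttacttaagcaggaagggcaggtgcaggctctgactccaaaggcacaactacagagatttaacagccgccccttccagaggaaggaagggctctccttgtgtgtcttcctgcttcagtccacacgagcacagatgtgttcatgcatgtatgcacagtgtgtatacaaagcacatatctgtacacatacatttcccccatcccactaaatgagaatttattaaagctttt
*Pde9a* later intron, chr17:31434071-31434360: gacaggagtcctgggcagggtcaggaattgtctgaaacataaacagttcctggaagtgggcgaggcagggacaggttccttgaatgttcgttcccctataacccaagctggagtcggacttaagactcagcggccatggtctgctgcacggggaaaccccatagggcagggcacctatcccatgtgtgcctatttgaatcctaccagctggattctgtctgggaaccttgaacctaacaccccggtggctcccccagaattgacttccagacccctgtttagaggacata
The stretch before the curated start consisted of G and C at 72.5% of its bases, against 49% in the first intron and 54.1% in the later intron. No motif was searched in them.

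**Figure D1:**
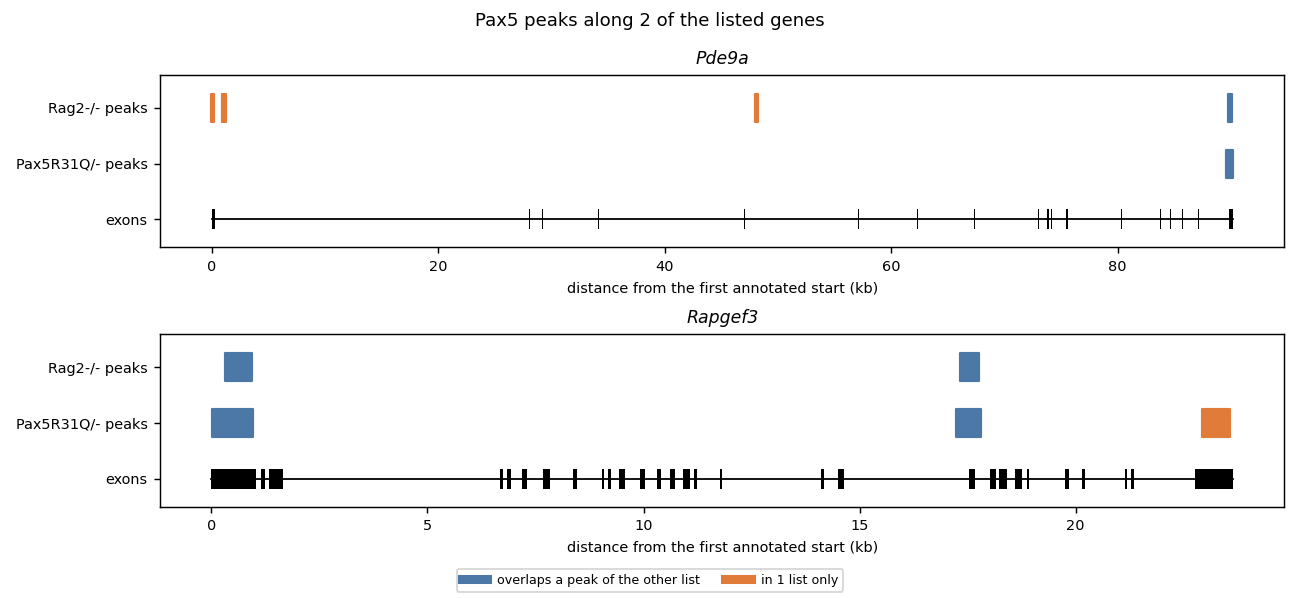
Pax5 peaks along *Pde9a* and *Rapgef3*. The x axis gives the distance from the first annotated start in kb; black boxes are exons of all annotated transcripts and colored boxes are peaks of the Rag2-/- and Pax5R31Q/- libraries. The 3 orange boxes of *Pde9a* are Rag2-/- peaks met by no Pax5R31Q/- peak, whereas both Rag2-/- peaks of *Rapgef3* were met by one.

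*Pde2a*, a phosphodiesterase of both cyclic nucleotides that cGMP stimulates, was the most abundant of the listed genes. Per length, it made up between 74.8% and 83.3% of the summed TPM of the 21 phosphodiesterase genes in each library. It had 1238 and 1266 TPM in the Pax5+/+ libraries, 1199 and 1127 TPM in Pax5+/-, 1155 and 1042 TPM in Pax5R31Q/- and 607 and 590.3 TPM in Pax5fl/fl Vav-Cre libraries. The Pax5fl/fl Vav-Cre libraries were the lowest and lay far from all others, at 0.478 times the Pax5+/+ mean (difference -1.06 ± 0.110). The Pax5R31Q/- libraries overlapped the Pax5+/- libraries, with a difference from Pax5+/+ of -0.19 (95% interval -0.45 to 0.07). With *Pde2a*, the summed phosphodiesterase TPM was 1519 ± 33.0 in Pax5+/+ and 769 ± 29.3 in Pax5fl/fl Vav-Cre cells (SD, n = 2 each), and 1364 ± 93.8 in Pax5R31Q/- cells.

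The cAMP-specific *Pde4d* and *Pde4b* were also lowest in the Pax5fl/fl Vav-Cre libraries. *Pde4d* had 26.2 and 29.3 TPM in Pax5+/+, 29.1 and 25.4 TPM in Pax5+/-, 20.6 and 21.3 TPM in Pax5R31Q/- and 7.001 and 7.89 TPM in Pax5fl/fl Vav-Cre libraries. Its Pax5R31Q/- values lay between those of the Pax5fl/fl Vav-Cre libraries and those of the other genotypes, overlapping neither. Its difference from Pax5+/+ was -1.77 ± 0.142 in Pax5fl/fl Vav-Cre and -0.39 ± 0.142 in Pax5R31Q/- cells. *Pde4b* had 81.5 and 71.2 TPM in Pax5+/+, 68.3 and 75.4 TPM in Pax5+/-, 90.04 and 82.1 TPM in Pax5R31Q/- and 38.7 and 50.1 TPM in Pax5fl/fl Vav-Cre libraries. Here the Pax5R31Q/- libraries were the highest and the Pax5fl/fl Vav-Cre libraries the lowest, at 0.582 times the Pax5+/+ mean (difference -0.78 ± 0.152), a call that was lost in a fit of both genotypes alone.

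*Pde3b*, whose hydrolysis of cAMP is inhibited by cGMP, and the cAMP-specific *Pde7a* passed the threshold in none of the 5 comparisons when all libraries were fitted, and did so under some alternatives. *Pde3b* had 39.2 and 34.6 TPM in Pax5+/+, 44.1 and 50.2 TPM in Pax5+/-, 56.5 and 54.3 TPM in Pax5R31Q/- and 37.6 and 61.1 TPM in Pax5fl/fl Vav-Cre libraries. The Pax5R31Q/- libraries lay above those of Pax5+/+ and Pax5+/- (difference from Pax5+/+ 0.57, interval 0.07 to 1.07, past the threshold when either Pax5fl/fl Vav-Cre library was left out), and the Pax5fl/fl Vav-Cre libraries overlapped those of every other genotype. *Pde7a* had 22.5 and 19.3 TPM in Pax5+/+, 23.9 and 26.5 TPM in Pax5+/-, 25.2 and 24.2 TPM in Pax5R31Q/- and 12.6 and 29.0 TPM in Pax5fl/fl Vav-Cre libraries. For both genes the lower of the Pax5fl/fl Vav-Cre values came from replicate 1, the library with the high myeloid markers and the lowest depth, and the part of either in these values was not tested. Without that library, the difference of *Pde7a* between Pax5fl/fl Vav-Cre and Pax5+/+ turned from -0.11 to 0.46. Without Pax5fl/fl Vav-Cre replicate 2 it was -0.68 and *Pde7a* was called, as it was between both mutants (0.92). *Pde3b* differed between Pax5fl/fl Vav-Cre and Pax5+/+ cells by 0.37, with 0.03 to 0.71 when single libraries were left out, and was called higher with voom (0.48), quantile normalization (0.49) and without Pax5fl/fl Vav-Cre replicate 1. It was also called between both mutants without Pax5fl/fl Vav-Cre replicate 2 (0.55).

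**Figure D2:**
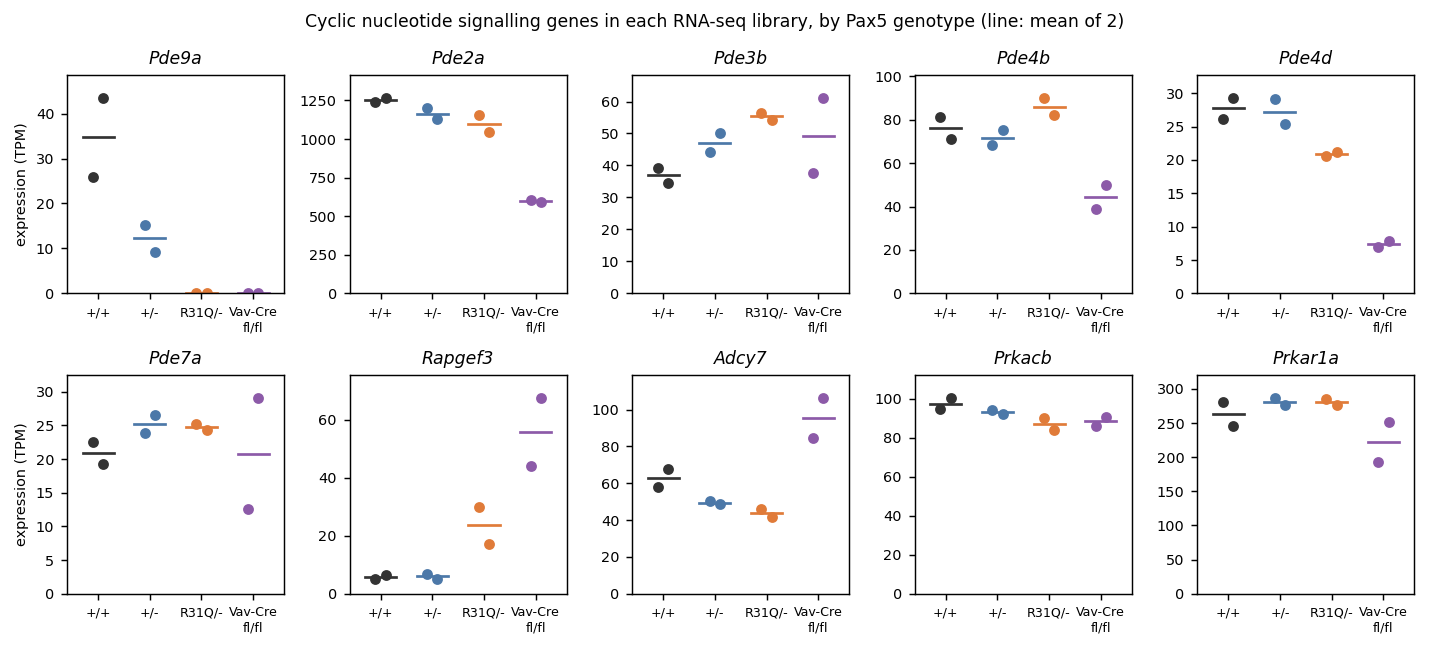
Expression of the 10 listed genes. Each panel plots TPM on a linear axis from 0 against genotype; points are the 2 libraries of a genotype and lines their means. *Pde9a* is at or near 0 in both mutants, *Rapgef3* is at 5.21 and 6.58 TPM in Pax5+/+ and at 44.0 and 67.3 TPM in Pax5fl/fl Vav-Cre libraries, and *Prkacb* and *Prkar1a* vary little.

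*Rapgef3* encodes Epac1, the exchange factor through which cAMP activates Rap1, and its level was higher in both mutants than in Pax5+/+ and Pax5+/- cells. The gene lies on the minus strand of chromosome 15 from 97744770 to 97768419. It had 5.21 and 6.58 TPM in the Pax5+/+ libraries, 6.92 and 5.20 TPM in Pax5+/-, 29.98 and 17.0 TPM in Pax5R31Q/- and 44.0 and 67.3 TPM in Pax5fl/fl Vav-Cre libraries. The Pax5+/- values enclosed those of Pax5+/+, all 4 mutant libraries lay above them, and both mutants did not overlap each other. The mean was 3.99 times that of Pax5+/+ in Pax5R31Q/- cells (difference 1.78 ± 0.307; interval 1.07 to 2.499) and 9.45 times in Pax5fl/fl Vav-Cre cells (3.02 ± 0.307; 2.301 to 3.73). The 2 Pax5R31Q/- libraries differed from each other more than those of any control group, with 1601 and 889 reads. The call against Pax5+/+ was lost without Pax5R31Q/- replicate 1 (1.39) or 2 (2.18) and without Pax5+/+ replicate 1 (1.64) or 2 (1.93), and also with no filter on low values and in a fit of both compared genotypes alone. That between both mutants (-1.23 ± 0.307) was lost without Pax5R31Q/- replicate 2 (-0.84) or Pax5fl/fl Vav-Cre replicate 2 (-0.93), and in a fit of both genotypes alone.

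Some markers of other cell types were also high in the Pax5fl/fl Vav-Cre libraries. The summed 5 plasmacytoid dendritic cell markers ranged from 403 to 783 TPM in Pax5fl/fl Vav-Cre, from 292 to 311 TPM in Pax5+/+ and from 177 to 190 TPM in Pax5R31Q/- libraries, and *Siglech*, a defining gene of these cells, had 106 ± 73.6 TPM in Pax5fl/fl Vav-Cre, 7.52 ± 5.86 TPM in Pax5+/+ and 1.01 ± 0.451 TPM in Pax5R31Q/- cells. The means of *Irf8*, *Ccr9* and *Clec10a* were also higher in Pax5fl/fl Vav-Cre than in Pax5+/+ cells, whereas that of *Tcf4* was lower (73.3 ± 20.2 against 96.5 ± 1.39 TPM). Of the endothelial and stromal markers, whose sum was 14.996 to 17.1 TPM in Pax5fl/fl Vav-Cre and 20.4 to 21.6 TPM in Pax5+/+ libraries, *Cdh5* had 9.97 ± 4.44 TPM in Pax5fl/fl Vav-Cre, 1.37 ± 0.280 TPM in Pax5+/+ and 0.536 ± 0.159 TPM in Pax5R31Q/- cells. The means of the other 5 genes of that list, *Kdr*, *Emcn*, *Cxcl12*, *Col1a1* and *Col1a2*, were lower in Pax5fl/fl Vav-Cre than in Pax5+/+ cells. In the Pax5R31Q/- libraries, the summed endothelial and stromal markers were 10.02 to 11.8 TPM, and the myeloid sum given above was higher than in Pax5+/+ libraries. The part of such cells in the values of *Rapgef3* was not tested.

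Both Rag2-/- peaks of *Rapgef3* were met by Pax5R31Q/- peaks. One covered an annotated start at the 5′ end of the gene, at chr15:97767486-97768111 (626 bp), where the Pax5R31Q/- peak was 960 bp wide, and the other lay at chr15:97750665-97751102. Pax5R31Q/- cells had a further peak of 650 bp in the last exon, at chr15:97744853-97745502, that the Rag2-/- list lacked. *Rapgef3* overlaps *Rapgef3os2* and *Gm33531* on the other strand, and since the strand setting of the read counting is not given in the sources used here, its values may include reads of these genes.

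*Adcy7*, an adenylyl cyclase prominent in blood cells, was called higher than Pax5+/+ in Pax5fl/fl Vav-Cre cells and was not called in Pax5R31Q/- cells, where its level was lower. It had 58.0 and 67.5 TPM in Pax5+/+, 50.1 and 48.9 TPM in Pax5+/-, 46.2 and 41.7 TPM in Pax5R31Q/- and 84.7 and 106.1 TPM in Pax5fl/fl Vav-Cre libraries. No 2 genotypes overlapped. The difference from Pax5+/+ was -0.50 (interval -0.84 to -0.16) in Pax5R31Q/- and 0.59 (0.25 to 0.93) in Pax5fl/fl Vav-Cre cells, and that between both mutants was -1.09 ± 0.145. The call of *Adcy7* in Pax5fl/fl Vav-Cre against Pax5+/+ cells was lost without Pax5+/+ replicate 1 (0.48) and in a fit of both genotypes alone, and its value in Pax5R31Q/- against Pax5+/+ cells, which passed in 0 of the 8 fits that left out 1 library, passed the threshold with voom, median-ratio scaling or quantile normalization (-0.55, -0.54 and -0.53). *Adcy7* overlaps *Brd7* on the other strand.

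Neither of the protein kinase A genes passed the threshold in the 5 comparisons when all libraries were fitted. *Prkacb*, a catalytic subunit, had 94.9 and 100.3 TPM in Pax5+/+, 94.1 and 92.0 TPM in Pax5+/-, 90.1 and 84.3 TPM in Pax5R31Q/- and 86.3 and 90.7 TPM in Pax5fl/fl Vav-Cre libraries. *Prkar1a*, a regulatory subunit, had 281 and 246 TPM in Pax5+/+, 286 and 277 TPM in Pax5+/-, 285 and 277 TPM in Pax5R31Q/- and 194 and 252 TPM in Pax5fl/fl Vav-Cre libraries. The difference of *Prkacb* from Pax5+/+ lay between -0.16 and -0.07 in the other 3 genotypes. That of *Prkar1a* was 0.09 (interval -0.24 to 0.43) in Pax5R31Q/- and -0.25 (-0.59 to 0.08) in Pax5fl/fl Vav-Cre cells. Without Pax5fl/fl Vav-Cre replicate 2, *Prkar1a* was called lower in Pax5fl/fl Vav-Cre than in Pax5+/+ (-0.44) and in Pax5R31Q/- cells (0.53 for Pax5R31Q/- against Pax5fl/fl Vav-Cre).

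**Figure D3:**
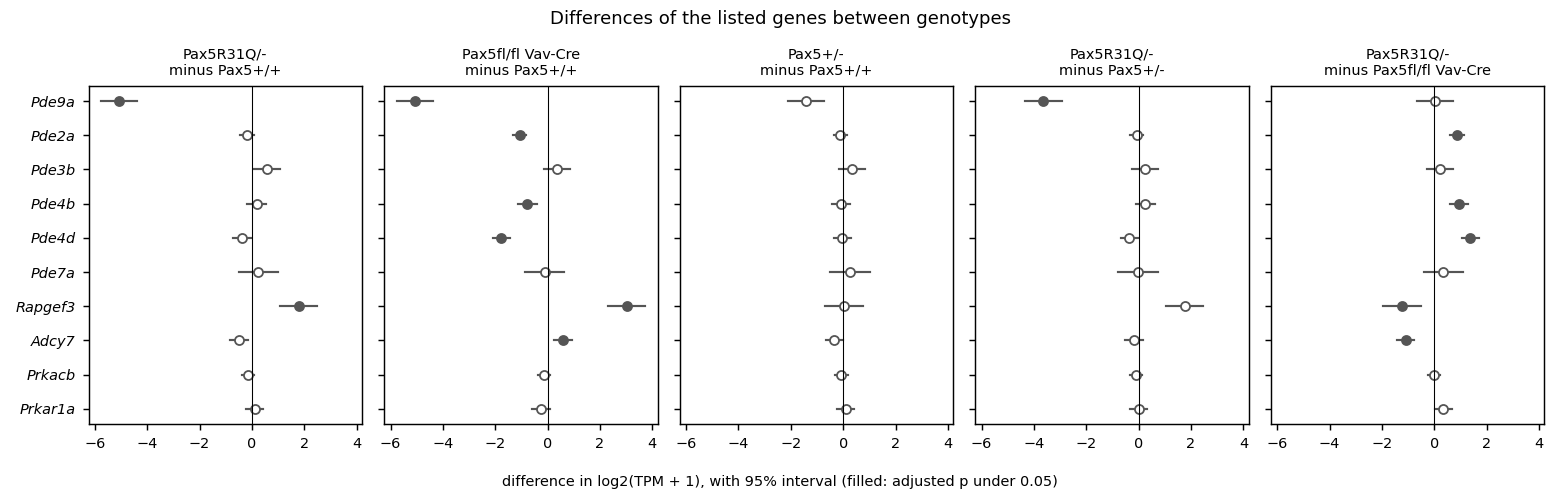
Differences of the 10 listed genes in 5 comparisons of genotypes. The x axis is the difference in log2(TPM + 1), bars are 95% intervals of the limma fit and filled points have an adjusted p-value under 0.05 over all genes tested. *Pde9a* is at -5.07 in the first panel, -1.43 in the Pax5+/- panel and 0.01 between both mutants, while *Pde2a*, *Pde4b* and *Pde4d* are filled in the panels with Pax5fl/fl Vav-Cre cells and open in the others.

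The counts of listed genes past an adjusted p-value of 0.05 (limma, Benjamini-Hochberg over all 13436 genes) are given for description, since these values chose the genes. In Pax5R31Q/- against Pax5+/+ cells, *Pde9a* was called lower and *Rapgef3* higher, beside 2.55% of all genes called lower and 1.62% called higher. *Pde9a* reached the 1 TPM needed for the test only in Pax5+/+ and Pax5+/- libraries. In every comparison it was therefore tested through the genotypes in which it was high. In Pax5fl/fl Vav-Cre against Pax5+/+ cells, *Pde9a*, *Pde2a*, *Pde4b* and *Pde4d* were called lower and *Rapgef3* and *Adcy7* higher, beside 19.7% and 16.2% of all genes. Between Pax5+/- and Pax5+/+ cells, limma called 0 listed genes, with 1 at an unadjusted p-value under 0.05. With limma-voom on the recovered reads, 0 were called and 2 had such a value. Of all genes, limma called 0.0223% in either direction. In Pax5R31Q/- against Pax5+/- cells, *Pde9a* was called lower and no listed gene higher, beside 0.35% and 0.268% of all genes. *Rapgef3* differed by 1.75 ± 0.307 there without passing, and it passed with median-ratio scaling, quantile normalization or voom. In Pax5R31Q/- against Pax5fl/fl Vav-Cre cells, *Rapgef3* and *Adcy7* were called lower and *Pde2a*, *Pde4b* and *Pde4d* higher, beside 14.7% and 19.9% of all genes. The comparisons share the Pax5+/+ or the Pax5R31Q/- libraries and are not independent. The median difference over all genes was -0.11 in Pax5fl/fl Vav-Cre against Pax5+/+ and 0.13 in Pax5R31Q/- against Pax5fl/fl Vav-Cre cells, and after median-ratio scaling, which brings it to -0.02 and 0.01, the same 6 and 5 listed genes were called in the same directions.

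Pax5 peaks in the listed genes or within 10 kb of them numbered 44 in the Rag2-/- list and 29 in the Pax5R31Q/- list. Of the 44, 21 overlapped no Pax5R31Q/- peak, beside 62.5% of all 41983 Rag2-/- peaks. The Pax5R31Q/- list was shorter, with 18821 peaks, and each list comes from 1 library without a replicate. *Pde4d*, the longest of the genes with 1301793 bp, had 17 Rag2-/- peaks, of which 11 were met by none in Pax5R31Q/- cells. *Pde2a* had 7 and kept 5, and *Pde7a*, *Rapgef3*, *Adcy7* and *Prkar1a* had 2 each and kept both. *Pde3b* and *Pde4b* had 3 each and kept 1, and *Prkacb* had 2 and kept 1. Within 1 kb of an annotated transcription start site, 9 of the 10 genes had a Rag2-/- peak, all but *Pde4b*. In 1 of these 9, *Pde9a*, no such peak was met by a Pax5R31Q/- peak, beside 3.86% of the 8694 genes tested that have a Rag2-/- peak there. *Rapgef3*, *Pde2a*, *Pde4d* and *Adcy7* kept theirs.

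The Rag2-/- peaks without a Pax5R31Q/- counterpart were narrower, with a median width of 323 bp against 502 bp for the others, as in the whole list (316 and 468 bp). All 3 such peaks of *Pde9a* were under 400 bp, so that no listed gene had lost its start site peaks when only peaks of at least 400 bp were taken. Of the 21, 6 lay almost wholly in sequence masked as repeats, 5 of them in *Pde4d* and 1 downstream of *Pde3b*, and those of *Pde9a* were masked over 0% to 34.1% of their length.

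**Figure D4:**
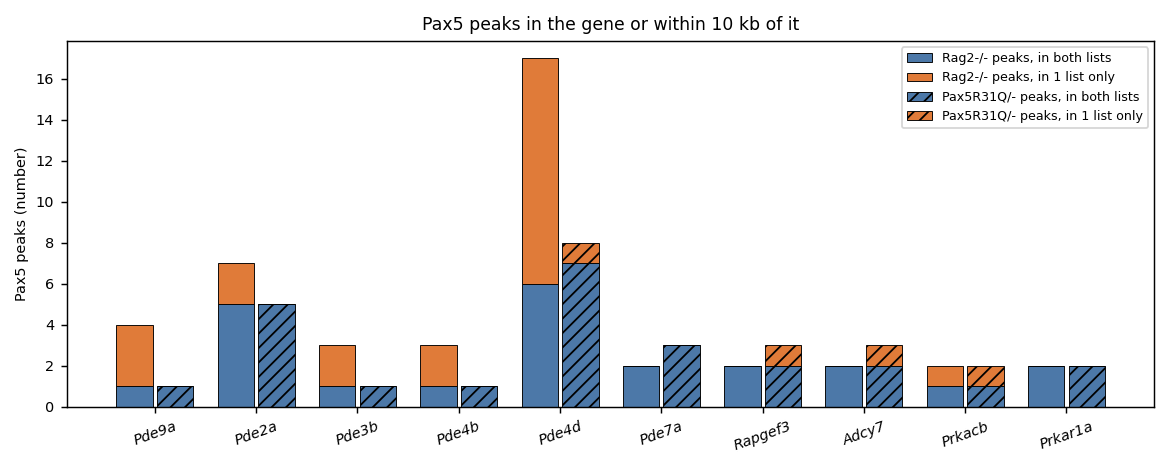
Number of Pax5 peaks in each listed gene or within 10 kb of it. Bars stack peaks found in both lists (blue) and in 1 list (orange), plain for the Rag2-/- and hatched for the Pax5R31Q/- library. *Pde9a* has 4 Rag2-/- and 1 Pax5R31Q/- peak, and *Pde4d* 17 and 8.

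The profile most like that of *Pde9a* over the 8 libraries, by the root mean square distance of log2(TPM + 1) less the Pax5+/+ mean among 10788 genes with a mean over 5 TPM in some genotype, was that of *Cldn4* (0.808), followed by *Enpep* (0.850) and *Edaradd* (0.955). Their means were 19.5, 19.2 and 26.1 TPM in Pax5+/+ and 0.439, 0.0428 and 1.501 TPM in Pax5R31Q/- cells. For *Rapgef3*, the nearest were *Sema6d* (0.381), *Sbspon* (0.388) and *Adgrg3* (0.415), and *Adgrg3*, the most abundant of them, had a mean of 63.2 TPM in Pax5+/+, 172 TPM in Pax5R31Q/- and 620.2 TPM in Pax5fl/fl Vav-Cre cells. *Pde9a* stood at 12.2 TPM in Pax5+/- cells, where *Cldn4* had 8.02, *Enpep* 2.62 and *Edaradd* 8.95 TPM.

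Around the listed genes, 70 other genes of cyclic nucleotide pathways could be tested of 113 present in the files. In Pax5R31Q/- against Pax5+/+ cells, 2 of the 70 were lower and 3 higher (limma, adjusted over all genes), beside 2.55% and 1.62% of all genes, and their median difference was 0.07 beside 0.04 over all genes. These counts depended on single libraries: 0 of the 70 passed without either Pax5R31Q/- library, with 12 and 11 at an unadjusted p-value under 0.05 in limma, 2 passed without Pax5+/+ replicate 2, and 8 passed without Pax5fl/fl Vav-Cre replicate 1. limma-voom on the recovered reads called 9.

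*Rapgef5*, an exchange factor for Rap GTPases, fell from 16.1 ± 0.880 TPM in Pax5+/+ to 6.57 ± 0.222 TPM in Pax5R31Q/- cells (n = 2 each; difference -1.18 ± 0.144, limma adjusted p = 0.00557). *Npr1*, the natriuretic peptide receptor that makes cGMP, was called lower, with 3.17 ± 1.01 and 0.429 ± 0.00692 TPM. It reached 1 TPM only in Pax5+/+ and Pax5+/- libraries, and so it entered the test through the genotypes in which it was high. *Pde8a*, a cAMP-specific phosphodiesterase, rose from 5.07 ± 0.760 to 15.5 ± 0.349 TPM (1.45 ± 0.207, limma adjusted p = 0.0105). *Abcc4*, an exporter of cyclic nucleotides, rose from 3.71 ± 0.336 to 8.91 ± 0.544 TPM, and *Prkar2a*, a regulatory subunit of protein kinase A, from 4.36 ± 0.552 to 8.68 ± 0.267 TPM (limma adjusted p = 0.0149 and 0.0286). *Prkar2a* passed in 3 of the 8 fits that left out 1 library, with differences between 0.75 and 0.96, and it no longer passed without Pax5+/+ replicate 2, without any one of the Pax5R31Q/- or Pax5+/- libraries, with no filter or in a fit of both genotypes alone. *Abcc4* was lost without any one of the Pax5+/+ or Pax5R31Q/- libraries, *Pde8a* also without Pax5+/+ replicate 2, and *Npr1* also in a fit of both genotypes alone. *Rapgef5* was also lower in Pax5R31Q/- than in Pax5+/- cells, where it had 15.3 ± 0.165 TPM (-1.11 ± 0.144, limma adjusted p = 0.0259), and it was the 1 of 70 that passed in that comparison. It no longer passed when any one of the Pax5R31Q/-, Pax5+/- or Pax5+/+ libraries was left out, with differences between -1.14 and -1.08. Between Pax5+/- and Pax5+/+ cells, limma and voom each called 0 of the 70, with 7 at an unadjusted p-value under 0.05 in either.

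In Pax5fl/fl Vav-Cre against Pax5+/+ cells, 13 of the 70 were lower and 15 higher, beside the 19.7% and 16.2% of all genes given above, with a median of -0.11 that equaled that of all genes. Of the genes called, *Adcy5*, *Ptger2*, *Akap5* and *Gucy1a1* reached the 1 TPM needed for the test in Pax5fl/fl Vav-Cre libraries alone. *Gucy1b1* reached it only in libraries of both mutants, *Npr1* only in those of Pax5+/+ and Pax5+/-, and *Rapgef4* in Pax5+/+ libraries alone. Each of these genes was therefore tested through the genotypes in which it was high. Of the adenylyl cyclases, which could be called only where they reached that level, *Adcy3*, *Adcy5*, *Adcy6* and *Adcy9* were called higher. *Adcy5* and *Adcy9* no longer passed without either Pax5+/+ library or in a fit of both genotypes alone, nor did *Adcy9* without any one of the Pax5+/- or Pax5R31Q/- libraries. *Adcy6* rose from 5.45 ± 0.648 to 31.02 ± 6.80 TPM (2.2997 ± 0.236, limma adjusted p = 0.000322) and stood at 5.93 ± 0.305 TPM in Pax5R31Q/- cells. Of 7 other phosphodiesterases, *Pde4c* and *Pde5a* were lower and *Pde8a* higher. *Pde1b* was also called lower, but not with median-ratio scaling, quantile normalization, no filter or a fit of both genotypes alone, nor when any library other than Pax5+/+ replicate 1 was left out. *Pde5a*, which hydrolyzes cGMP, fell from 18.2 ± 1.75 to 4.40 ± 1.36 TPM (-1.85 ± 0.198, limma adjusted p = 0.000384), while *Pde4c* had 6.74 ± 1.39 and 2.21 ± 0.476 TPM. *Ptger2*, a Gs-coupled prostaglandin receptor that stayed under 1 TPM in every library of the other genotypes, had 0.641 ± 0.394 TPM in Pax5+/+ and 6.61 ± 0.157 TPM in Pax5fl/fl Vav-Cre cells. The adenosine receptor *Adora2a* fell from 33.7 ± 8.95 to 15.2 ± 0.680 TPM. *Akap12*, a scaffold of protein kinase A, fell from 357 ± 0.672 to 124 ± 3.67 TPM, *Rapgef5* to 4.12 ± 0.285 TPM and *Sipa1l2*, a Rap GTPase-activating protein, from 8.88 ± 1.08 to 2.39 ± 0.0772 TPM. *Abcc4* and *Prkar2a* rose to 16.5 ± 2.302 and 15.3 ± 1.56 TPM, and *Pde8a* stood at 12.1 ± 0.724 TPM. Of 5 CREB target genes tested, *Fos* was called higher (3.92 ± 1.11 and 9.59 ± 0.0578 TPM) and *Ppargc1a* lower (3.93 ± 0.912 and 0.795 ± 0.227 TPM), and their median difference was -0.43. *Fos* no longer passed without Pax5+/+ replicate 1.

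Between both mutants, 13 of the 70 were lower and 13 higher in Pax5R31Q/- cells, beside 14.7% and 19.9% of all genes. Of these, *Adcy5*, *Gucy1a1* and *Ptger2* reached 1 TPM in Pax5fl/fl Vav-Cre libraries alone and *Pde10a* in Pax5R31Q/- libraries alone, so they too were tested through the genotype in which they were high. *Pde5a* (19.7 ± 1.15 TPM in Pax5R31Q/-), *Akap12* (308 ± 41.3), *Adora2a* (37.1 ± 4.97), *Sipa1l2* (10.9 ± 0.790) and *Pde4c* (8.65 ± 2.96) were higher than in Pax5fl/fl Vav-Cre cells. *Adcy6* and *Ptger2* (0.395 ± 0.0618 TPM) were lower. Of the 7 CREB factors and coactivators, *Crtc1* (19.7 ± 0.182 against 44.2 ± 0.509 TPM), *Crtc3* and *Crem* were lower and *Atf1* and *Creb1* higher, and of the CREB target genes *Fos* was lower (1.81 ± 0.638) and *Ppargc1a* higher (2.16 ± 0.0116 against 0.795 ± 0.227 TPM). Without Pax5R31Q/- replicate 1 or 2, 11 and 12 of the 70 passed in place of 26, and *Crtc1* did not pass without replicate 1. *Crtc3*, *Crem*, *Atf1*, *Creb1* and *Ppargc1a* did not pass without either of these libraries, and *Crem*, *Atf1* and *Creb1* were also lost in a fit of both genotypes alone and without either Pax5+/- library. *Atf1* was further lost with voom, with median-ratio scaling and with no trend in the fit. *Creb1* was lost with no filter and with no trend, and *Crem* with no filter. No gene of protein kinase G, the kinase activated by cGMP, reached the 1 TPM needed for the test.

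**Figure D5:**
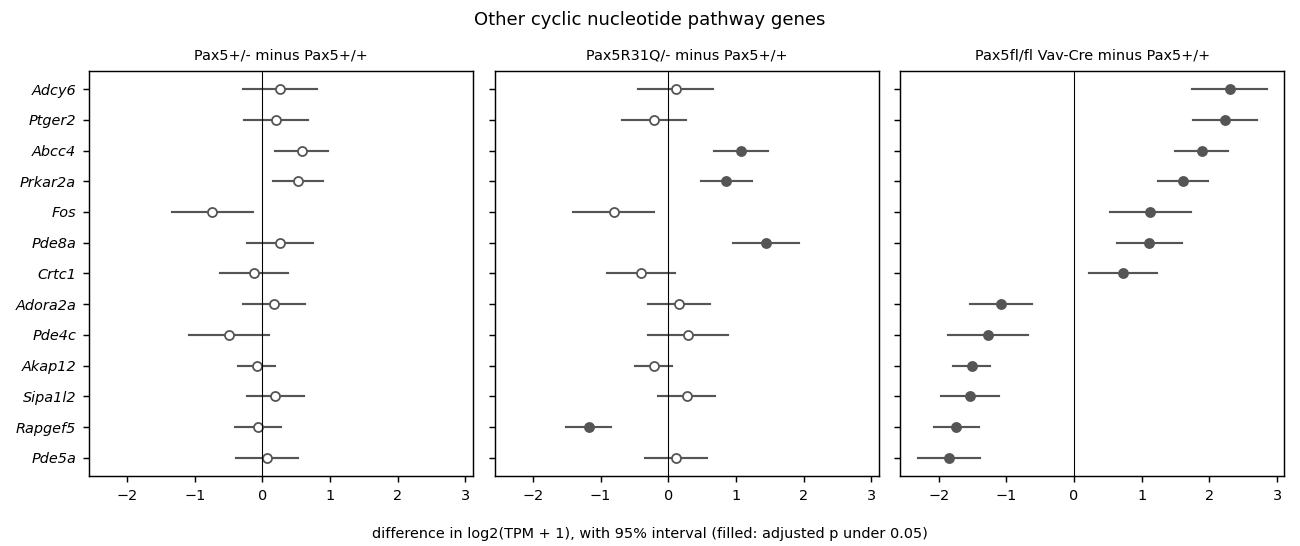
Differences of 13 other cyclic nucleotide pathway genes from Pax5+/+ in the other genotypes. The x axis is the difference in log2(TPM + 1), bars are 95% intervals of the limma fit and filled points have an adjusted p-value under 0.05; genes are ordered by the last panel. *Rapgef5*, *Pde8a*, *Abcc4* and *Prkar2a* are filled in both mutants, and no point is filled in the Pax5+/- panel.

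Of the 70 pathway genes, 48 had a Rag2-/- peak within 1 kb of a start site, and in 4 of these, *Adora2a*, *Akap7*, *Crtc3* and *Rap1gap*, no such peak was met by a Pax5R31Q/- peak, beside the 3.86% of all genes. Their differences between Pax5R31Q/- and Pax5+/+ cells were 0.15, 0.23, -0.39 and -0.51. Of the 4, limma called 0, beside 2.55% of all genes called lower and 1.62% called higher, so that so few genes decide nothing. *Rap1gap* reached the 1 TPM needed for the test in 1 Pax5+/+ library alone, with 1.14 TPM against 0.319 TPM in the other. *Rapgef5*, *Pde8a* and *Abcc4* had start site peaks that Pax5R31Q/- cells kept, and *Npr1* and *Prkar2a* had none in the Rag2-/- list.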

How the data were processed

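TPM values of 8 RNA-seq libraries and peak positions of 2 Pax5 ChIP-seq libraries were used as deposited. The authors aligned reads with STAR 2.4.2 (RNA-seq) and Bowtie2 2.3.5.1 (ChIP-seq) to GRCm38, counted uniquely mapping reads on RefSeq genes and deposited TPM, which have the same sum in each library, and peaks called with MACS as start and end with no score, after down-sampling of reads where they needed it for comparisons. The roles of the aligners follow the study's methods, and versions come from the submitters' processing notes. The read steps of the TPM values were whole for all 18206 genes above 0 in at least 2 libraries, which gave read numbers and depths.

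Differences were fitted with limma 3.58.1 in R 4.3.3 (eBayes with trend) on log2(TPM + 1) in 1 fit of 4 genotypes, over genes with at least 1 TPM in at least 1 library. Genes were called at a Benjamini-Hochberg adjusted p-value under 0.05 over all of them. The authors used DESeq2 on counts that were not used here. A two-sided exact permutation test of 2 libraries against 2 cannot go below p = 0.333. The limma fit was tested on simulated data, the peak counts were not. Peaks were assigned to genes within 10 kb, called shared at an overlap of at least 1 bp, and start site peaks had their midpoint within 1 kb of a RefSeq start. Peaks and figures were handled with Python 3.11.15, pandas 2.3.3, pysam 0.24.0 and matplotlib 3.10.9.

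The members and gene lists were chosen with earlier results of these data known. Other pathway genes are named where called with over 2-fold difference and over 5 TPM (at most 6 per direction and comparison). *Npr1*, *Prkar2a* in Pax5R31Q/- cells, genes of the CREB lists other than *Fos* and *Crtc1*, genes named for the filter, and genes named in counts of 5 or fewer were added after their values were seen. Other pseudocounts, filters, scalings, fits and left-out libraries were tried. The label of the Pax5R31Q/- ChIP-seq library names *Rag2* in its description, and its listed genotype was followed.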

Additional observations from a re-analysis of the deposited data

How the results depend on the processing

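Among the listed genes, the log2 differences called in the fit of all libraries with the settings of the report kept their direction under every alternative run. In Pax5R31Q/- against Pax5+/+ cells, *Pde9a* alone was called, 1 listed gene in place of 2, with no filter and in a fit of both compared genotypes alone, and 1 to 3 when single libraries were left out. In Pax5R31Q/- against Pax5+/- cells, 2 were called in place of 1 with voom, median-ratio scaling and quantile normalization, and 0 to 1 without single libraries. A fit of both genotypes alone called 4 listed genes in place of 6 for Pax5fl/fl Vav-Cre against Pax5+/+ and 4 in place of 5 for Pax5R31Q/- against Pax5fl/fl Vav-Cre cells. Of the 70 pathway genes, the Pax5R31Q/- to Pax5+/+ count of 5 became 9 with voom, 3 in a fit of both compared genotypes alone, and 0 to 8 without single libraries. The Pax5R31Q/- to Pax5+/- count of 1 became 4 with voom, 2 with median-ratio scaling, quantile normalization and a fit of both genotypes alone, 0 with no filter, and 0 to 1 without single libraries. A fit of both genotypes alone gave 17 in place of 26 for Pax5R31Q/- against Pax5fl/fl Vav-Cre and 15 in place of 28 for Pax5fl/fl Vav-Cre against Pax5+/+ cells, and leaving out single libraries gave 11 to 34 and 20 to 33. Such fits have fewer samples, and the cause of the other changes was not tested. No paired analysis was possible because the labels give no replicate numbers, and those used here only name the libraries in accession order.

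Of the peaks in and near the listed genes, widths of at least 400 bp left 18 Rag2-/- peaks (15 shared, 3 not) and 19 Pax5R31Q/- peaks (2 not shared), and 0 genes that had lost all start site peaks. A flank of 50 kb gave 37 shared Rag2-/- peaks and 47 Pax5R31Q/- peaks, 8 of them not shared, and an overlap of at least 50% of both peaks left 7 Pax5R31Q/- peaks not shared. Small differences are limited by 2 libraries a genotype, and peaks by 1 library a genotype.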
